A study of Morchella sextelata with 15 samples.

Results

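The transcripts described here are those that stood lower with each of 4 herbicides than without herbicide in the mycelium of Morchella sextelata, a cultivated black morel. They were chosen from their FPKM, the fragments of a transcript scaled by its length and by the library's total. A transcript was taken where its control mean was at least 5 FPKM, where each of the 4 herbicide means was at most 0.5 of the control mean, and where the highest of the 12 herbicide values lay below the lowest of the 3 control values. The 100 transcripts with the highest control mean were left out. This gave 221 of the 20602 transcripts in the table (1.07%), or 2.74% of the 8069 that met the conditions on control level. Because the difference between each herbicide and control chose these transcripts, their values against control are a description and carry no test. Differences between herbicides played no part in the choice beyond the ceiling on each of them and the condition of no overlap with control. They were tested.

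RNA was sequenced from wild-type mycelium grown on potato dextrose agar for 5 days at 20 °C, in 15 libraries. The 5 groups of 3 libraries were a control without herbicide and cultures with trifluralin, pendimethalin, S-metolachlor or acetochlor. Each herbicide was present at 10 times its own usual field rate, so the doses are the same multiple of 4 rates and not the same concentration. The labels number 3 replicates per group without saying that they came from separate cultures, so the p-values below measure only the spread between these libraries. The RNA came from whole mycelium, in which fewer cells of a type and less RNA per cell cannot be told apart.

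Trifluralin and pendimethalin are dinitroanilines, anilines with a pair of nitro groups, which in plants bind tubulin and stop microtubules from assembling. Trifluralin carries a trifluoromethyl group on the ring, and pendimethalin carries ring methyl groups and a branched alkyl chain on its amine. S-metolachlor and acetochlor are chloroacetanilides, which in plants block the elongases that make very-long-chain fatty acids. These 2 share the chloroacetyl group on a dialkyl aniline and differ mainly in the ether side chain on the nitrogen. Filamentous fungi extend their hyphae at the tip, a process that relies on microtubule transport and on a steady supply of membrane and wall material.

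No transcript could be given a gene name. The tables list assembled transcripts under Trinity names without annotation, and a gene table of 13182 entries held 0 of the 20602 names. The members are therefore described by transcript name, level and pattern, and neither pathway lists nor markers of the mycelium could be examined. No sequence of a member is printed, because the files used here hold none.

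Library totals were even, at 22923346 to 24766457 expected counts. The S-metolachlor libraries stood apart from the rest. They were closer to each other, with a median SD of log2 FPKM over the 8069 eligible transcripts of 0.133. In the other groups it was 0.248 to 0.320. They also had 18932 to 19722 transcripts above 0 against 17566 to 18215 in the other 12 libraries, and S-metolachlor replicate 1 had the highest number. Counts of members called that involve S-metolachlor are therefore also given without that library. The normalization factors computed by TMM, which compares each library with the others on the bulk of its transcripts, were 0.901, 0.982 and 0.830 in control and 0.928 to 1.09 in the herbicide libraries. FPKM carries no such factor. Rescaled by it, the median change of the 8069 eligible transcripts moved by -0.20, -0.20, -0.21 and -0.10 on the log2 scale for trifluralin, pendimethalin, S-metolachlor and acetochlor.

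The lowered transcripts together made up a few percent of the summed FPKM in control and under 1 percent in each herbicide library. Their summed FPKM was 3.29%, 2.34% and 3.53% of the library total in control replicates 1, 2 and 3 (mean 3.05 ± 0.631, SD, n = 3). With trifluralin the share was 0.710%, 0.902% and 0.468% (mean 0.693 ± 0.217). With pendimethalin it was 0.603%, 0.524% and 0.839% (mean 0.655 ± 0.164). The libraries of these dinitroanilines overlapped. With S-metolachlor the share was 0.349%, 0.429% and 0.334% (mean 0.370 ± 0.0511), and with acetochlor it was 0.725%, 0.784% and 0.719% (mean 0.743 ± 0.0357). The 3 S-metolachlor libraries were the lowest of all 15, as they were by share of counts, and the 3 acetochlor libraries all lay above them. The choice of the members sets the gap between control and herbicide libraries. It used no difference between herbicides, but its ceiling and its condition of no overlap act on each of them. The order among the herbicides is therefore a description.

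**Figure D1:**
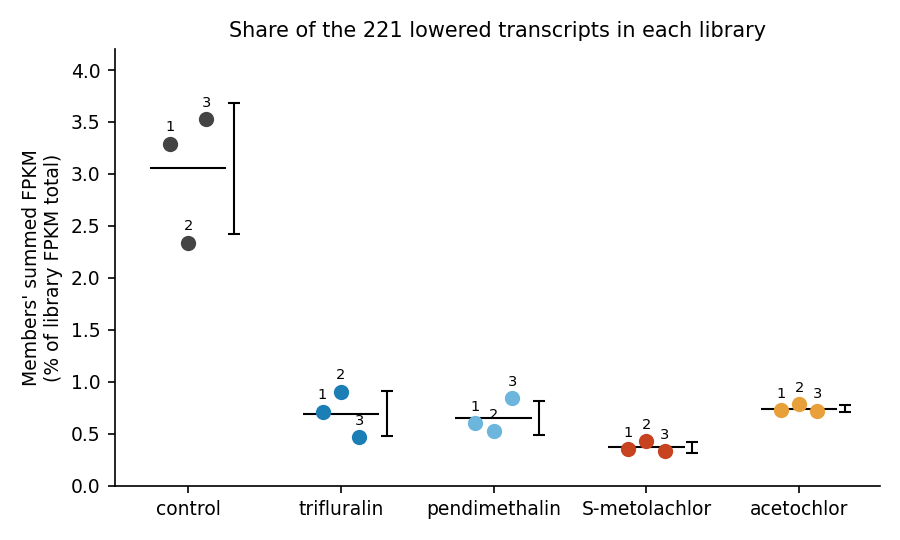
Summed FPKM of the 221 lowered transcripts as a percentage of the library's FPKM total (vertical axis, from 0) in each of the 15 libraries, grouped by treatment. Points are libraries with their replicate number, horizontal lines are group means and bars beside them are 1 SD in each direction; control lies at 2.34% to 3.53%, and S-metolachlor lies lowest, at 0.334% to 0.429%.

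The members span most of the range of expression. Their control means ran from 5.04 to 753 FPKM, with a median of 22.4 and quartiles of 8.57 and 65.5. They made up 68 of 1884 eligible transcripts (3.61%) at 5 to 10 FPKM, 56 of 3032 (1.85%) at 10 to 30 FPKM, 54 of 2155 (2.51%) at 30 to 100 FPKM and 43 of 998 (4.31%) from 100 FPKM upward. The share was thus lowest at middling levels and highest among abundant transcripts. Of the 100 most abundant transcripts that the rule set aside, 22 met all of its other conditions.

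With each herbicide the members' levels were several-fold under control, and the drop was deepest with S-metolachlor. The median change, as log2 of herbicide mean over control mean with 0.1 FPKM added to both, was -2.32 with trifluralin (quartiles -2.92 and -1.84) and -2.29 with pendimethalin (-3.01 and -1.74). It was -2.92 with S-metolachlor (-4.18 and -2.15) and -1.97 with acetochlor (-2.51 and -1.52). The median ratio of control to herbicide mean was 5.24, 5.03, 8.03 and 3.96 in the same order. Over the 8069 eligible transcripts the corresponding median changes were 0.19, 0.18, -0.00 and 0.06. By the rule, each control value exceeded each herbicide value in all 221 members. Over the whole table this held for 12.9% of transcripts with trifluralin, 9.8% with pendimethalin, 20.5% with S-metolachlor and 10.9% with acetochlor.

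The herbicides separated most in the deep tail. The control mean was at least 10-fold over the herbicide mean for 98 members with S-metolachlor, 40 with trifluralin, 39 with pendimethalin and 23 with acetochlor. At 30-fold the numbers were 34, 4, 3 and 4, and at 100-fold they were 12, 0, 0 and 2, with the 2 groups at 0 set to the bound that 3 fragments give. Few fragments, estimated from the expected counts, lie behind part of these. Of the 12 with S-metolachlor at 100-fold, 5 rest on 1 to 3 fragments, and both with acetochlor do. S-metolachlor gave the lowest of the 4 herbicide means for 144 members (65.2%), while it did so for 45.5% of eligible transcripts. Pendimethalin was lowest for 32, trifluralin for 28 and acetochlor for 17, and acetochlor gave the highest herbicide mean for 108. The commonest order, in 48 members, put S-metolachlor lowest, then trifluralin, pendimethalin and acetochlor. A further 29 had the same order with the dinitroanilines exchanged.

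**Figure D2:**
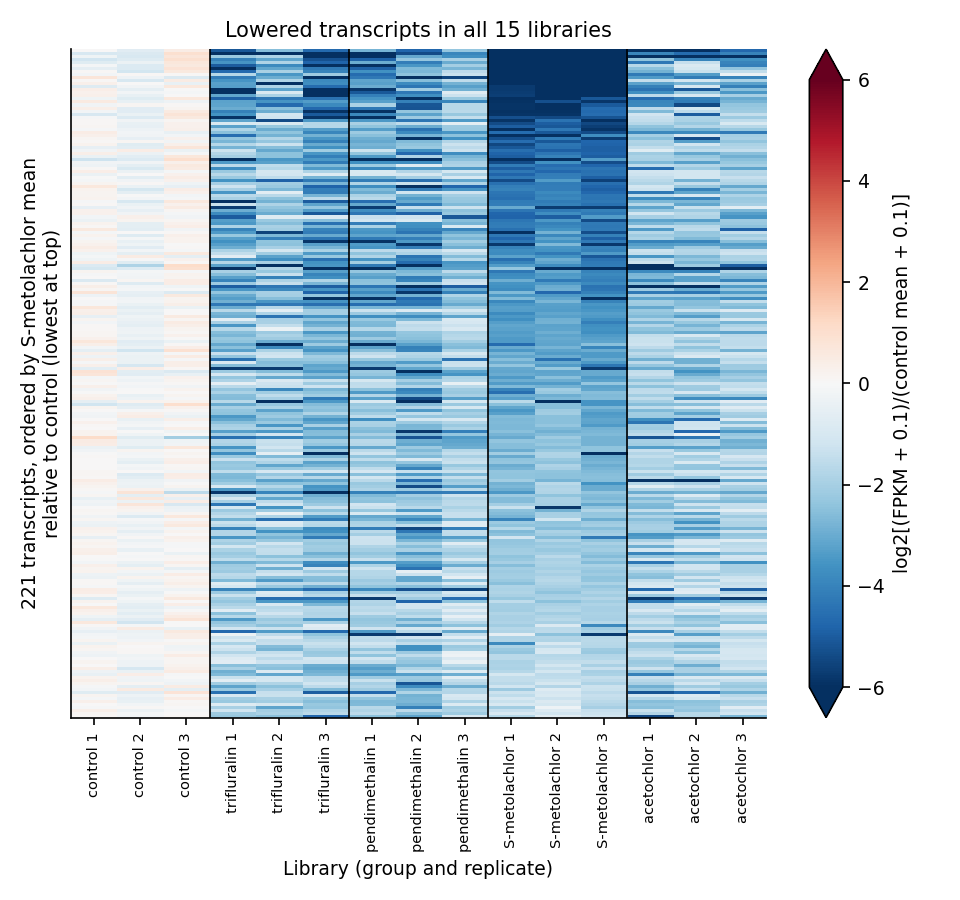
Level of each of the 221 lowered transcripts (one line each) in the 15 libraries (columns), as log2 of FPKM over the control mean with 0.1 FPKM added to both; blue is below the control mean and the colour scale ends at 6 in both directions. Lines are ordered by the S-metolachlor mean relative to control, and the darkest block is S-metolachlor at the top, where 34 members lay at least 30-fold under control.

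**Figure D3:**
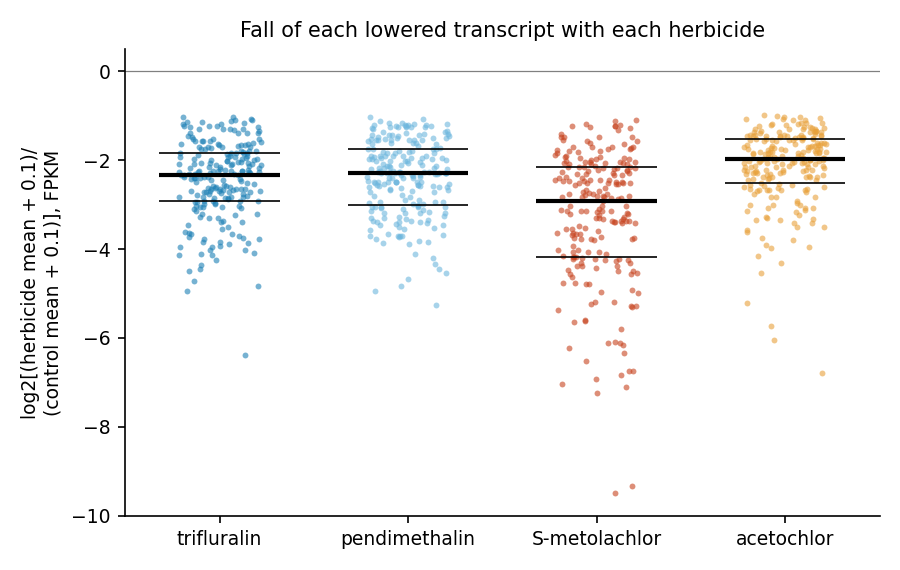
Change of each of the 221 members with each herbicide, as log2 of herbicide mean over control mean (FPKM, 0.1 added to both); points are transcripts, the thick line is the median and thin lines are quartiles. All points lie near or under -1 because the rule required it, and the S-metolachlor points reach furthest, to -9.49.

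How alike the 4 herbicides were differed from member to member. The highest and the lowest herbicide mean were within 2-fold of each other in 63 members and over 10-fold apart in 28. The median ratio of highest to lowest herbicide mean was 2.74 in the members and 1.80 in all eligible transcripts. All 4 herbicide means were at most 0.25 of control in 78 members, and all 4 lay above 0.25 of control in 15. The gap between the groups was often narrow. The lowest control value exceeded the highest herbicide value by a median ratio of 1.60, and by at least 2-fold in 76 members.

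The members nearest each threshold show how the edges of the set look. The least abundant member had a control mean of 5.04 FPKM, and the transcript just under the limit had 4.97. The highest herbicide mean reached 49.7% of control in the member nearest the ceiling and 50.5% in the transcript just outside. The lowest control value was 1.01 times the highest herbicide value in the member closest to overlap, against 0.997 in its neighbour. The most abundant member had a control mean of 753 FPKM, and the next transcript above it that met the other conditions had 824.

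Of all members, 8 were at least 10-fold lower with every herbicide. Their control means ran from 6.18 FPKM, in TRINITY_DN9678_c0_g1_i1_5, to 220 FPKM, in TRINITY_DN13795_c0_g1_i1_3. DN9678, one of the pair with the largest drop on pendimethalin, had 7.85, 5.47 and 5.21 FPKM in control. It had 0.207, 0 and 0.104 FPKM with pendimethalin and 0.103, 0.212 and 0.105 with trifluralin. With S-metolachlor it had 0.405, 0.709 and 0.191 FPKM, and with acetochlor 0, 0 and 0.508. No herbicide library reached 1 FPKM. The pendimethalin libraries together held 4.10 expected counts of it, an estimated 3 fragments. On that estimate its control-to-pendimethalin ratio of 59.5 has a counting interval (95%) of 20.0 to 290.

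DN9678 was 1 of 3 members below 1 FPKM in all 12 herbicide libraries, and the other two are named here after their values were seen. TRINITY_DN10900_c0_g1_i1_5 had 9.29, 7.51 and 5.37 FPKM in control and was at 0 in all 3 S-metolachlor libraries. Taking 3 fragments over the group as the limit that 0 allows, it was at least 10.9-fold lower with S-metolachlor. TRINITY_DN7925_c0_g2_i1_1 had 6.61, 4.54 and 5.31 FPKM in control and at most 0.915 FPKM with any herbicide. These 3 transcripts all sit close to the lower limit on control level.

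The largest drop on trifluralin, and one of the 2 largest on S-metolachlor, was that of DN13795. It had 113, 120 and 427 FPKM in control. It had 2.81, 3.36 and 1.42 FPKM with trifluralin, 3.39, 5.21 and 14.3 with pendimethalin and 14.3, 8.89 and 13.8 with acetochlor. With S-metolachlor it had 0.455, 0.135 and 0.133 FPKM. Control replicate 3 was well above the other two. Every S-metolachlor value lay below every value of the other groups, and the trifluralin values lay just below the pendimethalin values. The mean ratio of control to herbicide was 86.9 for trifluralin, 28.8 for pendimethalin, 913 for S-metolachlor and 17.9 for acetochlor.

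The other large drop on S-metolachlor was in TRINITY_DN1700_c0_g1_i1_1, an abundant transcript with 533, 322 and 715 FPKM in control. With S-metolachlor it had 0.729, 0.466 and 0.685 FPKM, a mean ratio of 835. With acetochlor it had 5.16, 4.23 and 19.7 FPKM, with trifluralin 15.2, 87.6 and 20.6, and with pendimethalin 76.0, 19 and 105. The S-metolachlor values were tight and far below all others, whereas trifluralin and pendimethalin each had libraries several-fold apart.

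On trifluralin the second of the 2 largest drops, with 0.1 FPKM added, was in TRINITY_DN3735_c0_g1_i1_5. By measured ratio alone DN3735 stood at 33.1 and DN9678 at 44.1. DN3735 was at 41.8, 74.1 and 14.5 FPKM in control and at 0.690, 2.72 and 0.534 FPKM with trifluralin. It had 2.53, 2.32 and 2.38 FPKM with pendimethalin, 3.85, 12.3 and 8.31 with S-metolachlor and 5.39, 6.09 and 5.06 with acetochlor. This member went against the common order, being highest of the herbicides with S-metolachlor, where 1 library came close to the lowest control. On pendimethalin the other large drop was in TRINITY_DN5819_c0_g1_i2_4, with 231, 113 and 76.1 FPKM in control and 6.96, 0.694 and 2.97 with pendimethalin. It had 7.91, 17.5 and 1.98 FPKM with trifluralin, 1.86, 1.32 and 1.14 with S-metolachlor and 13.4, 7.49 and 8.92 with acetochlor. Its pendimethalin and trifluralin values overlapped.

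The 2 transcripts with the largest drops on acetochlor, with 0.1 FPKM added, rest on few fragments. By measured ratio alone, DN9080 (TRINITY_DN9080_c0_g1_i1_3, named after its values were seen) stood at 117 on 1 fragment (interval 21.5 to 4858) and DN1700 at 53.9. TRINITY_DN5535_c0_g1_i1_3 had 17.5, 10.5 and 34.0 FPKM in control and a mean of 0.0886 ± 0.0839 FPKM with acetochlor. That mean came from 4.67 expected counts, an estimated 2 fragments. On that estimate the ratio of 233 has a counting interval of 79.4 to 2384. With S-metolachlor 2.11 expected counts were left, an estimated 1 fragment, for a ratio of 539 (interval 103 to 22790). DN5535 was at 3.39 ± 2.89 FPKM with trifluralin and 1.31 ± 1.22 with pendimethalin. TRINITY_DN13617_c0_g1_i1_3 had 3.05, 3.77 and 12.6 FPKM in control and 0 in all 3 acetochlor libraries, which makes it at least 10.6-fold lower. Its means were 0.596 ± 1.03 FPKM with trifluralin, 0.396 ± 0.344 with pendimethalin and 0.409 ± 0.709 with S-metolachlor, and 5 of these 9 libraries were at 0.

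The most abundant members were TRINITY_DN8063_c0_g1_i3_1 and TRINITY_DN5934_c0_g1_i2_4. DN8063 had 778, 498 and 982 FPKM in control. It had 209, 198 and 114 FPKM with trifluralin, 202, 57.8 and 394 with pendimethalin, 41.9, 50.7 and 38.3 with S-metolachlor and 264, 238 and 136 with acetochlor. DN5934 had 683, 418 and 1081 FPKM in control, 12.1, 312 and 12.1 with trifluralin, 8.86, 162 and 269 with pendimethalin, 18.7, 17.1 and 20.0 with S-metolachlor and 282, 201 and 160 with acetochlor. Both were lower in every S-metolachlor library than in every acetochlor library. In DN5934, 2 trifluralin libraries and 1 pendimethalin library were below all S-metolachlor libraries while the rest of both groups were far above, so its group means for the dinitroanilines describe no single library.

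Uneven libraries within a group were common among the members. The highest library was over 4-fold above the lowest, with 0.1 FPKM added, for 67 members with pendimethalin (30.3%), 55 with trifluralin (24.9%), 29 with acetochlor (13.1%), 23 with S-metolachlor (10.4%) and 8 in control (3.62%). Among transcripts of the same level in each group, taken as those between the members' quartiles, the shares for members and others were 30.6% and 17.3% with pendimethalin, 25.2% and 10.7% with trifluralin, and 12.6% and 7.24% with acetochlor. With S-metolachlor the order was the other way, at 10.8% and 19.5%. The rule required no overlap with control and so bears on these spreads, and no test was made. Single libraries recurred at the edge of their group. Pendimethalin replicate 3 was the highest of its group in 141 members (63.8%, against 33.6% of eligible transcripts), and control replicate 2 was the lowest control in 155 (70.1%, against 25.3%).

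The rule was also applied to 2 replicate numbers at a time and the libraries of the remaining number were read. The sets so chosen overlap with the members but are not the members. The unused libraries are not known to be separate cultures, so the shares below describe these libraries and are no independent test. Without the libraries numbered 1, the rule chose 230 transcripts, 194 of them members, and the unused control library lay above all 4 unused herbicide libraries for 220 (95.7%), against a background of 18.7% of eligible transcripts. Without those numbered 3, it chose 262, of which 178 were members, and the unused control was highest for 222 (84.7%, background 17.5%). Without those numbered 2, it chose 398, of which 205 were members, and the unused control was highest for 264 (66.3%, background 22.8%). In the unused libraries the median log2 change of these sets was between -2.60 and -1.24 for trifluralin, between -2.44 and -1.70 for pendimethalin, between -3.21 and -2.46 for S-metolachlor, and between -2.00 and -0.98 for acetochlor. The weakest values came from the unused libraries numbered 2 in all herbicides except pendimethalin.

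Between herbicides, all 6 pairs were compared. Expected counts of the 17555 transcripts that passed a filter on low counts were fitted with edgeR's quasi-likelihood test, and a transcript was called at a Benjamini-Hochberg adjusted p under 0.05. All 221 members passed that filter, for which their level in control can be enough. In fits of only the 2 herbicides compared, 195 to 210 of them passed, so some members counted below as not called had few reads with either herbicide.

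No member was called between the 2 dinitroanilines, where few transcripts of any kind were called. None of the 221 was called higher or lower with pendimethalin than with trifluralin, where 0.0684% of all tested transcripts were called higher and 0.342% lower, 0.41% in all. With so few calls over the whole table, 0 of 221 members is near the background. A fit of only the 2 groups called 0 transcripts of any kind. DESeq2 called 0 members and 215 transcripts in all. An unadjusted edgeR p under 0.05 was found for 13 members, and its share over all tested transcripts was not computed. The median difference was 0.08 on the log2 scale, with 122 members above 0 and 99 below. Small differences were not resolved. The 95% interval had a median half-width of 1.11 on the log2 scale, and it lay within 2-fold in both directions for 44 members.

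The 2 chloroacetanilides differed on many members. Acetochlor was called higher than S-metolachlor for 96 members (43.4%, where 17.9% of all tested transcripts were called higher) and lower for 3 (1.36%, where 19.5% were called lower). The median difference was 1.03, against -0.03 over all tested transcripts. Of the 99 calls, which compare with 37.3% of all tested transcripts in either direction, 93 were at least 2-fold. Without S-metolachlor replicate 1 there were 61 calls, 59 of them higher, and without S-metolachlor replicate 3 there were 63. Calls over all tested transcripts also fell, from 6555 to 4695 and 4903. The ceiling of 0.5 of control takes out every transcript that S-metolachlor raised, so the low number in the other direction follows in part from the rule.

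Calls against the dinitroanilines were also mostly lower with S-metolachlor, but the share of members called was near or below the background. Against trifluralin, 62 members were lower with S-metolachlor (28.1%) and 5 higher (2.26%), 30.3% in all. Of all tested transcripts, 16.9% and 18.2% were called lower and higher, 35% in all. Against pendimethalin, 67 members were lower (30.3%) and 6 higher (2.71%), 33.0% in all. The background was 16.7% and 16.3%, 33% in all. The members thus differed from the background in direction and not in how often they were called. The ceiling in the rule takes out every transcript that S-metolachlor raised over control, so the few higher calls follow in part from it. The median differences were -0.58 and -0.71. Without S-metolachlor replicate 1 the calls numbered 45 against trifluralin and 47 against pendimethalin. Over all tested transcripts they fell from 6153 to 4393 and from 5796 to 4063.

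Few members were called between acetochlor and the dinitroanilines. Against trifluralin, 3 members were higher with acetochlor and 0 lower, where 1.04% and 1.14% of all tested transcripts were called, 2.19% in all. The 3 were DN6066, DN11664 and TRINITY_DN5660_c0_g1_i1_3, the last named after its values were seen, at 1.94 ± 0.687 FPKM with acetochlor and 0.717 ± 0.234 with trifluralin. Against pendimethalin, DN6066 and DN11664 were higher with acetochlor and none was lower, where the background was 1.25% and 1.11%, 2.35% in all. These shares of 1.36% and 0.905% are near the background. The medians leaned the same way, at 0.46 and 0.41, with 155 and 157 members above 0. Over all tested transcripts the medians were 0.02 and -0.03. An unadjusted edgeR p under 0.05 was found for 50 and 44 members, and its share over all tested transcripts was not computed. DESeq2 called 27 and 18 members in these pairs, where it called 1829 and 1647 of all transcripts. With acetochlor, 24 and 17 of these members were higher and 3 and 1 were lower. Leaving out 1 library of the pair gave 0 to 1 calls against trifluralin, and DN5660 was lost each time (adjusted p 0.0662 to 0.152). Against pendimethalin it gave 0 to 16, the highest without pendimethalin replicate 3, where 1329 of all tested transcripts were called.

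**Figure D4:**
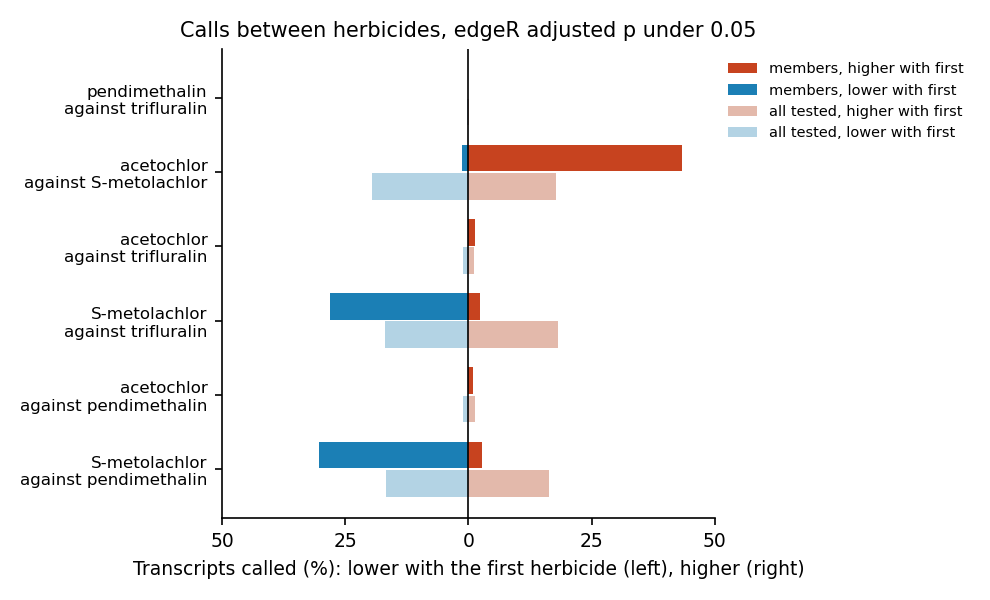
Percentage of the 221 members (dark bars) and of all 17555 tested transcripts (pale bars) called between 2 herbicides by edgeR's quasi-likelihood test at an adjusted p under 0.05; bars to the right are higher and bars to the left lower with the first herbicide named. In the 3 pairs with S-metolachlor the members were called mostly on the side where S-metolachlor is lower, while all tested transcripts divide about evenly; bars for pendimethalin against trifluralin are at 0 for members and too short to see for all transcripts.

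S-metolachlor was called lower than all 3 other herbicides for 48 members (21.7%, background 10.4%), and lower than at least 1 other for 109 (49.3%, background 24.5%). It was higher than at least 1 other for 8 (3.62%, background 25.6%) and higher than all 3 for 2 (background 11.4%). The bearing of the rule's ceiling on these counts was not tested. Without S-metolachlor replicate 1, a count added after the data were seen, these 4 numbers were 30, 66, 8 and 0. The backgrounds fell as well, to 6.74%, 17.2%, 18.7% and 7.28% in the same order. S-metolachlor had no call against another herbicide for 104 members (47.1%), near the background of 49.9%. Without that library it had none for 147, where the background was 64.1%. A call in at least 1 of the 6 pairs was likewise near the background, with none for 103 members (46.6%), where 50.2% of all tested transcripts had one. The medians over the 48 were 54.5 FPKM in control, 9.92 with trifluralin, 10.4 with pendimethalin, 13.5 with acetochlor and 1.84 with S-metolachlor. Over the 104 with no call between S-metolachlor and another herbicide the medians were 12.2 FPKM in control, 2.73, 2.54 and 3.06 with the other three, and 2.47 with S-metolachlor. The members without such a call had the lower median in control.

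Several of the members named for S-metolachlor against another herbicide are described above. The naming rule takes the largest differences among abundant members without overlap, not the smallest p. DN13795 was higher with acetochlor than with S-metolachlor with a log2 difference of 5.74 (SE 0.83 and adjusted p = 0.000271 by edgeR) and lower with S-metolachlor than with pendimethalin, with a difference of -4.98 (SE 0.81, edgeR adjusted p = 0.000672). DN1700 was lower with S-metolachlor than with trifluralin, with a difference of -6.05 (-4.84 without trifluralin replicate 2; SE 0.93, edgeR adjusted p = 0.000416), and than with pendimethalin, with a difference of -6.73 (SE 0.96, edgeR adjusted p = 0.000278). All 4 calls held in every alternative run.

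TRINITY_DN3535_c0_g1_i1_5 separated S-metolachlor from the others at a lower level. It had 35.7, 41.3 and 41.2 FPKM in control and 0.287, 0.180 and 0.342 with S-metolachlor. It had 12.1, 3.40 and 8.87 FPKM with trifluralin, 1.49, 7.04 and 15.3 with pendimethalin and 1.98, 3.73 and 31.1 with acetochlor. The S-metolachlor values were tight and lowest, and acetochlor replicate 3 was close to control while its other libraries were not. It was higher with acetochlor than with S-metolachlor by 5.51 (SE 1.11, edgeR adjusted p = 0.00227), or by 3.59 without acetochlor replicate 3. Against trifluralin the S-metolachlor difference was -4.93 (SE 1.09, edgeR adjusted p = 0.00399).

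A few members went the other way and stayed higher with S-metolachlor. TRINITY_DN397_c0_g1_i1_2 had 716, 435 and 615 FPKM in control and 237, 323 and 191 with S-metolachlor. It had 124, 137 and 99.4 FPKM with trifluralin, 89.98, 90.8 and 161 with pendimethalin and 102, 108 and 154 with acetochlor. All S-metolachlor values lay between control and the other herbicides. S-metolachlor exceeded pendimethalin by 1.11 (edgeR adjusted p = 0.0124), a call lost without S-metolachlor replicate 2 or pendimethalin replicate 1 or 2 (adjusted p up to 0.0566). S-metolachlor exceeded trifluralin by 1.03 (SE 0.30, edgeR adjusted p = 0.0170), a call lost without S-metolachlor replicate 2 (0.81) or trifluralin replicate 3 (0.88). Acetochlor was below S-metolachlor, with a difference of -0.94 (SE 0.30, edgeR adjusted p = 0.0250), a call lost without any 1 of S-metolachlor replicates 1 and 2 and acetochlor replicates 1 and 2 (adjusted p up to 0.107).

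TRINITY_DN7839_c0_g2_i1_5, named after its values were seen, was the other member higher with S-metolachlor than with all 3. It had 24.9, 43.6 and 31.8 FPKM in control and 15.8, 11.0 and 8.90 with S-metolachlor. Its means were 4.66 ± 0.802 FPKM with trifluralin, 3.56 ± 0.660 with pendimethalin and 3.88 ± 1.72 with acetochlor, and no library of these reached the lowest S-metolachlor library. The differences on the log2 scale, S-metolachlor being the higher, were 1.32 against trifluralin and 1.72 against pendimethalin (SE 0.35 and 0.36, edgeR adjusted p = 0.0112 and 0.00299). Acetochlor against S-metolachlor gave -1.50 (SE 0.36, edgeR adjusted p = 0.00595). The difference from trifluralin was lost without S-metolachlor replicate 1 (adjusted p = 0.0557 by edgeR), and the others held without any 1 library.

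DN3735 was higher with S-metolachlor than with trifluralin by 2.60 (3.70 without trifluralin replicate 2; SE 0.64, edgeR adjusted p = 0.00721), and than with pendimethalin by 1.74 (SE 0.61, edgeR adjusted p = 0.0444). The second call was lost without S-metolachlor replicate 2 or 3 or any 1 of the pendimethalin libraries (adjusted p up to 0.153). Over all alternatives it was kept in 6 and lost in 9. TRINITY_DN5696_c0_g1_i1_1 had 570, 359 and 341 FPKM in control, 114, 95.3 and 99.8 with S-metolachlor and 29.0, 11.3 and 9.19 with pendimethalin. It had 26.6, 30.02 and 17.3 FPKM with trifluralin, and 16.7, 243 and 14.1 with acetochlor. Acetochlor replicate 2 alone was high, over 10-fold above the other acetochlor libraries. S-metolachlor exceeded pendimethalin by 2.65 (SE 0.89, edgeR adjusted p = 0.0361), a call lost without any 1 of the S-metolachlor libraries or of pendimethalin replicates 2 and 3 (adjusted p up to 0.109). Over all alternatives this call was kept in 9 and lost in 6.

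The 2 members named for acetochlor against the dinitroanilines kept more of their level with acetochlor. TRINITY_DN6066_c0_g1_i1_3 had 59.1, 49.4 and 61.8 FPKM in control and 20.2, 15.1 and 19.9 with acetochlor. It had 6.34, 1.27 and 5.04 FPKM with trifluralin, 5.18, 2.60 and 5.23 with pendimethalin and 0.857, 2.51 and 0.751 with S-metolachlor. The acetochlor values lay apart from those of all other groups. Acetochlor exceeded trifluralin by 2.22 (SE 0.53, edgeR adjusted p = 0.0494) and pendimethalin by 2.19 (SE 0.53, edgeR adjusted p = 0.0491). The first call was lost without any 1 of its 6 libraries, and the second without any 1 of them except pendimethalin replicate 3 (adjusted p up to 0.166 and 0.150). Over all alternatives each of these calls was kept in 6 and lost in 9. The first was also lost with no filter, in a fit of only the 2 groups and with the replicate block.

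TRINITY_DN11664_c0_g1_i1_1 had 183, 146 and 248 FPKM in control, 42.7, 31.8 and 36 with acetochlor and 17.3, 19.9 and 17.2 with S-metolachlor. It had 9.72, 9.81 and 8.38 FPKM with trifluralin and 8.06, 8.96 and 23.3 with pendimethalin. Acetochlor lay highest of the herbicides, and pendimethalin replicate 3 stood apart from its group. Acetochlor exceeded trifluralin by 2.08 (SE 0.38, edgeR adjusted p = 0.0213), a call lost without acetochlor replicate 1 or any 1 of the trifluralin libraries (adjusted p up to 0.1). It exceeded pendimethalin by 1.55 (SE 0.37, edgeR adjusted p = 0.0482), a call lost without any 1 of the libraries compared except pendimethalin replicate 3, without which the difference was 2.23 (adjusted p 0.00149 to 0.237 over the alternatives). Over all alternatives this last call was kept in 7 and lost in 8.

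**Figure D5:**
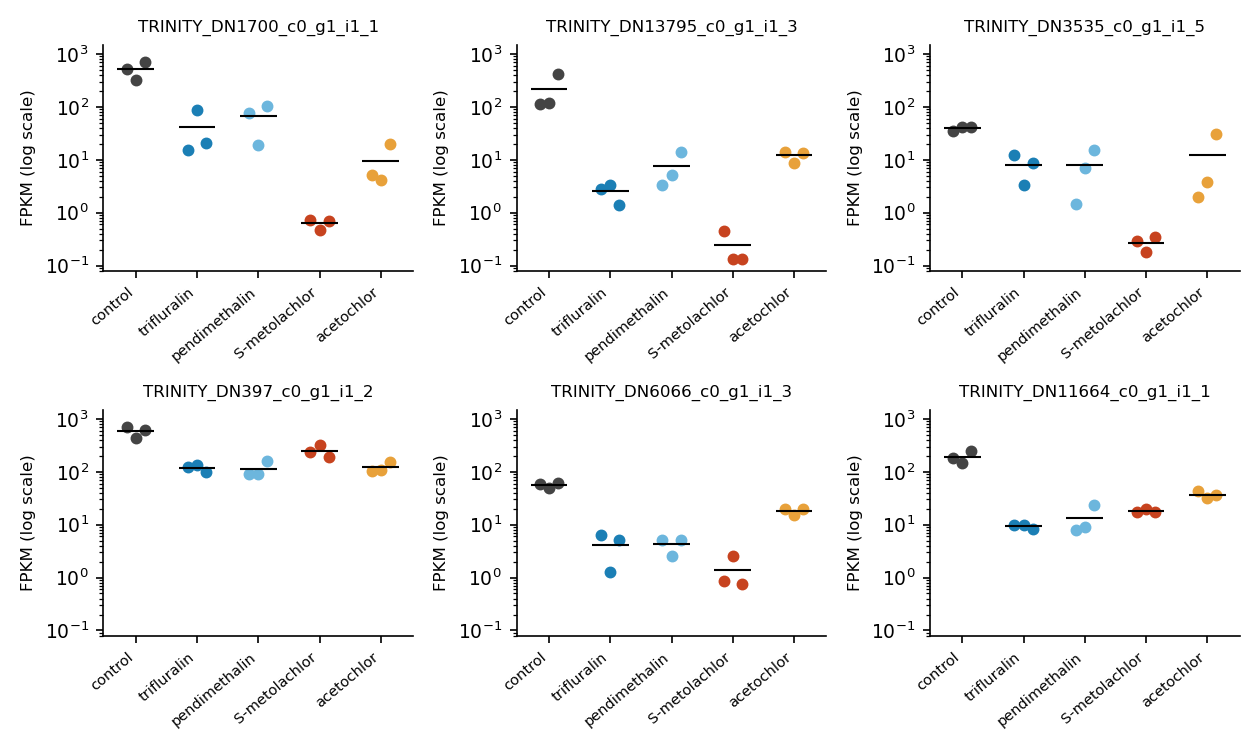
FPKM of 6 named members in each library (log scale), by group; points are the 3 libraries of a group and horizontal lines are group means. DN1700, DN13795 and DN3535 lie below 1 FPKM in every S-metolachlor library, DN397 is higher with S-metolachlor than with any other herbicide, and DN6066 and DN11664 are highest of the herbicides with acetochlor.

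Features that the rule did not use were compared between the members and the 8069 eligible transcripts, as a description. Each transcript name ends in a digit from 1 to 5, and no source used here says what it stands for. Names ending in 3, 5 and 1 gave 74, 58 and 62 members, or 4.23%, 3.51% and 3.27% of the eligible transcripts with those digits. Names ending in 4 and 2 gave 16 and 11, or 1.04% and 0.894%. Members were shorter than the rest. Their relative length, the expected count divided by the FPKM with the eligible median set to 1, had a median of 0.807 and quartiles of 0.458 and 1.21, against 0.621 and 1.53 for the eligible transcripts. Without that digit the members carry 220 names. The 2 that share one, TRINITY_DN11701_c0_g1_i1_1 and TRINITY_DN11701_c0_g1_i1_5, named after their values were seen, had control means of 10.01 ± 0.699 and 6.21 ± 0.399 FPKM (SD, n = 3), and whether they are 1 transcript is not known.

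For comparison in the other direction, 169 transcripts met the mirrored rule, with each herbicide mean at least 5 FPKM and at least 2-fold over control and no overlap. Without the conditions on level and size, all 3 control values lay above all 12 herbicide values for 657 transcripts (3.19%) and below them for 1037 (5.03%).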

How the data were processed

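For the 15 libraries the authors deposited a pair of tables over 20602 transcripts, one of expected counts (estimated fragments per transcript, mostly not whole) and one of FPKM; 0 columns belonged to no listed sample. Trimmomatic, Bowtie2 and DESeq are named without versions, per the submitters' processing notes. The build in those notes is mm10, a mouse build, while the transcript names have the form of a Trinity assembly. The sources used here do not give the counting program, the assembler's settings or any use of strand. Reads shared by near-identical or overlapping transcripts may have been divided between them, so single values are uncertain in that respect.

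The members and the tests were chosen with earlier results of these data known. Members were selected on the deposited FPKM as described. Expected counts were rounded and fitted with edgeR 4.0.16 in R 4.3.3 (filterByExpr with minimum count 10 and minimum total 15, which kept 17555 and removed 3047, TMM, quasi-likelihood test, all 15 libraries, 1 mean per group), with p-values adjusted by the Benjamini-Hochberg method within each pair over all tested transcripts. Standard errors are log2 differences over the square root of F. Alternatives were DESeq2 1.42.0, limma 3.58.1 on log2(FPKM + 0.1) and log2(FPKM + 1) with and without a filter at 1 FPKM, other size factors, no filter, a fit of only the 2 groups, adjustment over all 6 pairs together, the replicate number as a block, and leaving out each library.

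Named transcripts are the 2 largest drops per herbicide with 0.1 FPKM added, the 2 highest in control, and up to 2 higher and 2 lower per pair. Those named for a pair were called, with no overlap between libraries and at least 10 CPM in the higher group. A group at 0 was set to 3 fragments over the group. Fragment numbers are estimates, a group's summed expected counts divided by the counts taken as 1 fragment. That unit is the median of the transcript's lowest counts, with values near 0 left out, and at least 1. Groups with an estimated 1 to 3 fragments have a 95% interval for their ratio, which depends on that estimate. Intervals and floors cover counting error only.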

Additional observations from a re-analysis of the deposited data

Results flagged for a closer look

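The named differences between 2 herbicides are listed again because the test of the difference itself found 1 herbicide's effect on the member unlike the other's, by edgeR's quasi-likelihood test. They are log2 differences, first herbicide over second. For acetochlor against S-metolachlor they were 5.74 in DN13795, 5.51 in DN3535 and -0.94 in DN397. For S-metolachlor against trifluralin they were 2.60 in DN3735, 1.03 in DN397, -6.05 in DN1700 and -4.93 in DN3535. For S-metolachlor against pendimethalin they were 2.65 in DN5696, 1.74 in DN3735, -6.73 in DN1700 and -4.98 in DN13795. For acetochlor against trifluralin they were 2.22 in DN6066 and 2.08 in DN11664, and for acetochlor against pendimethalin they were 2.19 in DN6066 and 1.55 in DN11664.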

How the results depend on the processing

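The number of members rose to 365 with a control mean of at least 1 FPKM and fell to 78 with herbicide means at most 0.25 of control. It was 216 to 350 without 1 library, the highest without control replicate 2, and 398 without the libraries numbered 2. On TMM-scaled values it was 291, of which 220 were members. With 1 FPKM added in place of 0.1, the median change with S-metolachlor was -2.37; TMM-scaled medians were -2.53, -2.51, -3.13 and -2.11 for trifluralin, pendimethalin, S-metolachlor and acetochlor.

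Members called for acetochlor against trifluralin, 3 in the fit reported, numbered 27 by DESeq2, 18 with adjustment over all 6 pairs together, and 1 each with no filter, in a fit of only the 2 groups and with the replicate block. Leaving out 1 library gave 0 to 1. Over all transcripts, 384 were called in the fit reported, 1829 by DESeq2 and 1416 with the joint adjustment. For acetochlor against pendimethalin, 2 in the fit reported, the numbers were 18 by DESeq2, 12 with joint adjustment, 1 by limma with 0.1 FPKM added, and 0 each with no filter, only the 2 groups and the replicate block. Leaving out 1 library gave 0 to 16, the highest without pendimethalin replicate 3. Over all transcripts, 413 were called in the fit reported, 1647 by DESeq2, 1354 with joint adjustment and 1329 without that library. Leaving out 1 library gave 61 to 87 calls for acetochlor against S-metolachlor, 47 to 73 for S-metolachlor against pendimethalin, 45 to 70 for S-metolachlor against trifluralin and 0 throughout for pendimethalin against trifluralin. The causes were not tested. With the replicate block, the 3 S-metolachlor pairs had 93, 62 and 61 calls in the same order. Of 225 alternative values for single named differences, 174 kept their call, 51 lost it and 0 reversed.

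The labels share replicate numbers between groups, but libraries of the same number did not deviate together in most pairs. Their correlations were -0.439 to 0.399 over 30 pairs, 5 of them over 0.1, and 3 of 15 libraries lay closest to their own number. Deviations from a mean of 3 libraries cannot show whether same-numbered libraries shared a batch or culture, and the labels do not say. The 95% interval of a member's difference between herbicides had a median half-width of 1.11 to 1.12 on the log2 scale, so differences of 2-fold in one member were often within it.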
